A study of Caenorhabditis elegans with 6 samples.

Results

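The detected F-box genes of *Caenorhabditis elegans* were followed in nematodes grown with the organophosphorus pesticide chlorpyrifos (CPF), which inhibits acetylcholinesterase. A gene probe belonged to the set when the gene behind it had a symbol starting with fbxa-, fbxb- or fbxc- and its spot's median lay above the median of the local background by more than 2 background SDs in at least 6 of 12 channels (both dyes of 6 arrays). This gave 67 probes for 62 genes, out of 385 F-box probes for 345 genes on the array and 22490 gene probes in all. The members were thus chosen by their measured brightness in these same arrays, so their being detected is a description and not a finding.

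The CPF animals were wild type N2 nematodes, whole and pooled from several dishes per sample, that had been raised on agar holding 0.5 mg/l CPF brought in with acetone. The control nematodes were N2 raised in the same way on agar with acetone alone. Both groups were kept at 24 °C. The labels give an age of 72 h and the stages L3 and L4, whereas the methods of the study describe a shorter time to late L3 at this temperature, and the files do not decide between them. Each of 6 arrays carried RNA of 1 CPF sample and RNA of 1 control sample. CPF was dyed with Cy5 on 3 arrays, called CPF in Cy5 here, and with Cy3 on the other 3, called CPF in Cy3.

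F-box proteins are the interchangeable adaptors of SCF ubiquitin ligases. Their F-box binds a Skp1-related protein on the cullin scaffold, and the rest of the protein picks the substrate that is to be marked with ubiquitin. Nematodes carry very large families of such genes in clusters of recent duplicates, named fbxa, fbxb and fbxc after the kind of domain that follows the F-box, and most of their members have no known substrate. Some, such as fbxa-75 and fbxa-158, belong to the intracellular pathogen response of the intestine in *C. elegans*, which also contains the cullin gene cul-6 and the Skp1-related genes skr-3, skr-4 and skr-5. Duplicates of this kind can be so alike that a long oligonucleotide binds transcripts of more than 1 gene. The probe sequences were not used here, so each probe is reported under the gene its name gives.

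Directions in what follows are those of the scanner files' own sample labels. The deposited table of log ratios runs against them, since each of its 6 columns matched, over 5963 bright probes, the array with the same replicate number and the other dye orientation (correlations across probes between 0.916 and 1.00 in size). If the table's labels were the right ones, every log2 ratio given here would change sign, higher and lower would swap, and p-values and total counts would remain. The share of gene probes above background ranged from 38.7% to 56.1% in the CPF channels and from 35.2% to 53.4% in the control channels. Array CPF in Cy3 replicate 1 stood apart, with an SD of its log2 ratios of 0.90 over the tested probes, against 0.42 to 0.47 on the other arrays. All slides with CPF in Cy3 were scanned ahead of those with CPF in Cy5, so the orientation of the dyes cannot be told apart from the slide series or the animals.

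Most F-box probes were not above background in these animals. Of the 385, 269 were above background in 0 channels and 16 in all 12, and 67 (17.4%) reached 6 channels, against 49.1% of all gene probes. By family these were 54 of 217 fbxa probes (24.9%), 3 of 116 fbxb probes (2.59%) and 10 of 52 fbxc probes (19.2%). The math and bath genes code for the other large family of this kind in nematodes, proteins with a MATH domain that in the bath genes stands beside the BTB domain of cullin-3 adaptors. They were detected at 51 of 126 probes (40.5%). None of the 618 empty spots passed (0 of 618).

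**Figure D1:**
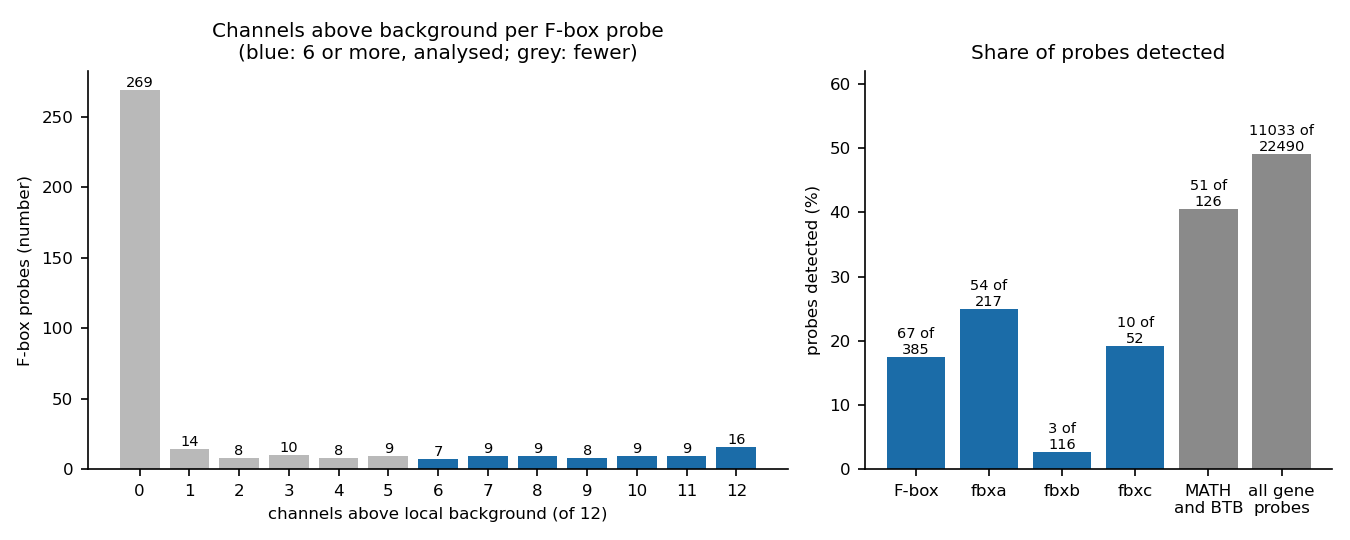
Left, number of F-box probes (y axis) by the number of channels above local background (x axis, of 12), with the 67 analysed probes in blue. Right, percent of probes detected (y axis) for all F-box probes, the 3 F-box families, the MATH and BTB genes and all gene probes. The tallest bar on the left is that of the 269 probes in 0 channels, and fbxb has the lowest share on the right, 3 of 116.

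By position, 22 of 76 F-box probes on chromosome III and 8 of 23 on chromosome IV were detected, against 12 of 129 on chromosome II, 20 of 111 on V, 4 of 26 on I and 1 of 20 on X. Pseudogenes were not missing from the set. Of 67 probes for F-box genes annotated as pseudogenes, 7 were detected (10.4%), and of 318 for protein coding F-box genes, 60 were (18.9%). Among the members of the intracellular pathogen response, fbxa-75 (Y119D3A.1) was above background in 0 channels and fbxa-158 (C08E3.10) in 2 CPF and 3 control channels, so neither was tested. The detection limit fell within a flat stretch of probes, 7 with exactly 6 channels and 9 with exactly 5. The 7 just inside had log2 ratios from -0.72 to 0.39, 3 positive and 4 negative, and the 9 just outside, in a fit without the filter, from -0.39 to 0.23, 5 positive and 4 negative. Inside the limit, CPF over control gave a log2 ratio of -0.25 for fbxa-176, -0.72 for a probe of fbxa-24 and -0.27 for fbxa-5. Outside it, the ratio was -0.37 for fbxa-105, 0.23 for fbxa-107 and -0.04 for fbxa-125.

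Which of the detected F-box genes the pesticide moved was asked by setting CPF against control on each array. In the channel labelled CPF, 3 of them were lower, fbxa-156, fbxc-54 and fbxa-189, by 1.42- to 1.47-fold, and 0 were higher. The 3 of 67 members (4.48%) past the threshold, an adjusted p of 0.05 in limma after Benjamini-Hochberg correction over 11033 tested probes, stand beside 3.50% of all tested probes. Lower calls made up 4.48% of the members and 2.17% of all tested probes, and higher calls 0.00% of the members and 1.33% of all tested probes. The members' share of calls was thus near the background. In whole animals, fewer cells of a type and less transcript per cell cannot be told apart.

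At an unadjusted p of 0.05, 19 members passed (28.4%), against 27.3% of all tested probes. Of these 19, 14 were lower and 5 higher in the CPF channel, whereas among all tested probes 11.5% were lower and 15.9% were higher. The fitted ratio was below 0 for 38 members (56.7%) and for 46.7% of all tested probes. A single sign throughout the 6 arrays was seen in 8 members (11.9%), 4 positive and 4 negative, and in 16.6% of all tested probes. Summed over the 67 probes, the signal was 23387 to 35309 in the CPF channels and 25717 to 54807 in the control channels, and the CPF sum was the higher one on 1 of 6 arrays. The highest control sum rested on fbxc-47, whose spot was far brighter on CPF in Cy3 replicate 3 than elsewhere. Without that gene, left out after the values were seen, the sums were 23238 to 30704 in the CPF channels and 25273 to 31183 in the control channels, and the CPF sum was again higher on 1 of 6 arrays. These shares describe the members and were not tested as a set.

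The members changed little in size. Their log2 ratios ran from -0.72 to 1.06 with a median of -0.05, beside 0.02 for all tested probes, and the SD of the members' median over the 6 arrays was 0.12. Within 0.5 of 0 lay 58 members, with 6 below -0.5 and 3 above 0.5. Larger than 0.5 in size were 9 ratios (13.4%), against 12.2% of all tested probes, and 1 was larger than 1. The SE of a member's ratio was 0.0956 to 0.32, with a median of 0.123. For every member the 6 CPF signals and the 6 control signals overlapped in range (0 of 67 without overlap, against 0.317% of all tested probes), so that the differences rest on the comparison within each array.

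**Figure D2:**
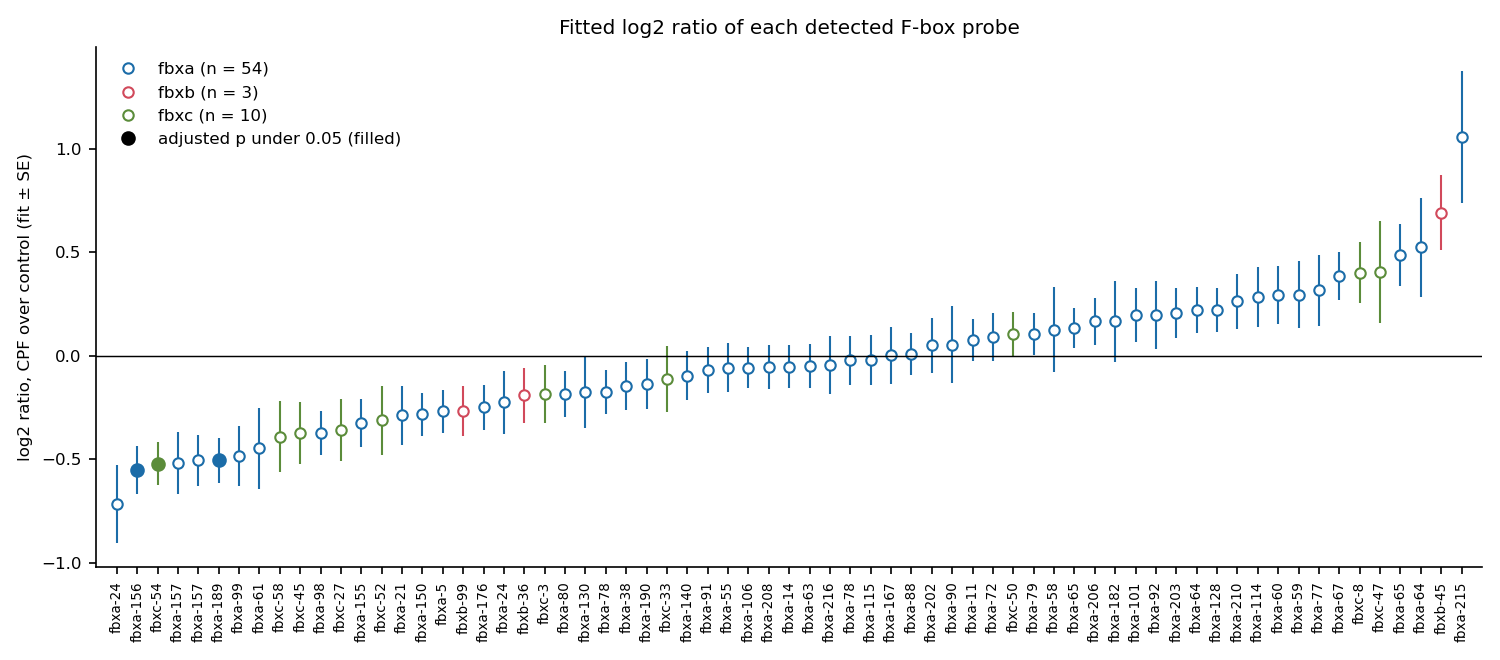
Fitted log2 ratio of CPF over control (y axis, with SE bars from 6 arrays) for each of the 67 F-box probes in rising order (x axis), coloured by family, with the probes past an adjusted p of 0.05 filled. The 3 filled points all lie below 0, and the ends are a probe of fbxa-24 at -0.72 and fbxa-215 at 1.06.

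Of the 3 called genes, fbxa-156 (C06H5.1), on chromosome V, was above background in all 12 channels. Its normalised log2 signal was 9.24 at the lowest, 10.44 at the median and 10.93 at the highest in the CPF channels, against 9.18, 10.90 and 11.99 in the control channels. The log2 ratios were -0.35, 0.06 and -0.24 with CPF in Cy5 and -1.06, -0.58 and -1.14 with CPF in Cy3. This gene was lower on 5 of 6 arrays, and most on those with CPF in Cy3. The fitted ratio was -0.55 ± 0.12 (SE, n = 6, adjusted p = 0.0468), a 1.47-fold lower level.

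The gene fbxc-54 (F23F1.3), on chromosome II, was lower on every array. Its log2 signal was 7.19, 7.84 and 8.54 (lowest, median and highest) in the CPF channels, against 7.83, 8.13 and 9.30 in the control channels, with 4 CPF and 5 control channels above background. The ratios were -0.04, -0.48 and -0.34 with CPF in Cy5 and -0.76, -0.88 and -0.62 with CPF in Cy3. The ranges overlapped although no array had a ratio above 0. The fit gave -0.52 ± 0.11 (SE, n = 6, adjusted p = 0.0399), or 1.44-fold lower.

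The last of them, fbxa-189 (F47H4.9), lies on chromosome V and was above background in the fewest channels of the 3. Its log2 signal was 6.34, 6.96 and 8.02 (lowest, median and highest) in the CPF channels, against 6.65, 7.64 and 8.38 in the control channels, with 4 channels of each group above background. The ratios were -0.56, -0.36 and -0.09 with CPF in Cy5 and -0.80, -0.47 and -0.75 with CPF in Cy3. All were negative. The fit gave -0.51 ± 0.11 (SE, n = 6, adjusted p = 0.0471), or 1.42-fold lower.

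These calls lay close to the threshold and depended on the arrays used. Without CPF in Cy5 replicate 1, 2 or 3 or without CPF in Cy3 replicate 2, none of the 3 passed, with adjusted p of 0.203, 0.131, 0.121 and 0.0840 for fbxa-156, 0.143, 0.164, 0.104 and 0.132 for fbxc-54 and 0.206, 0.166, 0.0863 and 0.109 for fbxa-189. In the same 4 fits the calls over all tested probes numbered 58, 81, 94 and 77, against 386 with every array. Without CPF in Cy3 replicate 1 all 3 passed, at adjusted p of 0.0318, 0.0225 and 0.0328 for fbxa-156, fbxc-54 and fbxa-189. In that fit 6 members (8.96%) were called, beside 806 of all tested probes (7.31%). Without CPF in Cy3 replicate 3 the 3 genes passed too, at 0.0488, 0.0289 and 0.0482. There 8 members (11.9%) were called, beside 1323 of all 11033 tested probes. Over these 6 fits the ratios stayed between -0.64 and -0.50 for fbxa-156, -0.58 and -0.47 for fbxc-54 and -0.57 and -0.45 for fbxa-189, and they were negative in every fit that gave one.

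The next members by p did not pass. Near fbxa-156 on chromosome V, with 1 annotated gene between them, lies fbxa-157 (C06H5.2), with 2 probes at -0.51 ± 0.12 (adjusted p = 0.0624) and -0.52 ± 0.15 (adjusted p = 0.0870, SE, n = 6 each). The second probe, above background in all 12 channels, had a log2 signal of 8.76, 9.16 and 10.31 (lowest, median and highest) in the CPF channels, against 9.02, 10.18 and 10.57 in the control channels. Its ratios were -0.26, 0.72 and -0.32 with CPF in Cy5 and -1.06, -0.98 and -1.20 with CPF in Cy3. Those with CPF in Cy3 lay close together, whereas those with CPF in Cy5 spread widely, with only replicate 2 above 0.

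For fbxa-24 (F54D10.2), on chromosome II, the probes were unlike in size. The first, at the detection limit with 3 channels of each group, had a log2 signal of 6.92, 7.55 and 8.15 (lowest, median and highest) in the CPF channels, against 7.57, 7.97 and 10.05 in the control channels, and its ratio was -0.72 ± 0.19 (SE, n = 6, adjusted p = 0.0715), the lowest of the members. A single array, CPF in Cy3 replicate 3, gave it -1.90. The other probe of the gene, above background in all 12 channels, lay at -0.22 ± 0.15 (adjusted p = 0.350).

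On the higher side, fbxb-45 (M01D1.10) on chromosome II had the smallest p. It was 1 of only 3 fbxb probes detected. Its log2 signal was 7.28, 8.91 and 9.42 (lowest, median and highest) in the CPF channels, against 6.80, 8.37 and 8.87 in the control channels, with 5 CPF and 3 control channels above background. The ratios were 0.47, 0.34 and -0.07 with CPF in Cy5 and 1.88, 1.10 and 0.43 with CPF in Cy3, and the fit gave 0.69 ± 0.18 (SE, n = 6, adjusted p = 0.0712). The widest of these was on CPF in Cy3 replicate 1, and 5 of 6 arrays were positive.

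The remaining members named by p were fbxa-98 (C08F11.5) on chromosome IV at -0.37 ± 0.11 (adjusted p = 0.0845) and fbxa-99 (F36G9.14) on chromosome V at -0.49 ± 0.15 (adjusted p = 0.0926). Each was lower on 5 of 6 arrays. The ratios of fbxa-98 were -0.23, 0.21 and -0.11 with CPF in Cy5 and -0.58, -0.65 and -0.87 with CPF in Cy3. Those of fbxa-99 were -0.51, 0.04 and -0.65 with CPF in Cy5 and -0.96, -0.73 and -0.12 with CPF in Cy3.

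The gene fbxa-215 (Y45F10C.3) on chromosome IV, named after its value was seen, had a fitted ratio of 1.06 ± 0.32 (SE, n = 6, adjusted p = 0.0936) and did not pass. Above background were 5 of its CPF channels but only 2 of 6 control channels, so that it entered the set mainly through the CPF side and the size of its ratio is uncertain. Its log2 signal was 6.24, 7.99 and 9.30 (lowest, median and highest) in the CPF channels, against 6.17, 6.94 and 7.66 in the control channels. The arrays split, with 1.19, 1.64 and 0.07 for CPF in Cy5 and 2.56, 0.89 and 0.0015 for CPF in Cy3, so that 1 array of each orientation showed almost no difference.

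None of the other members at an unadjusted p under 0.05 passed once adjusted. They were named after their values were seen, and fbxc-45, fbxc-27 and fbxc-8 among them are given with their family. On the lower side, fbxa-155 (C05B5.6) on chromosome III, above background in all 12 channels, was negative on 6 of 6 arrays at -0.33 ± 0.12 (SE, n = 6, adjusted p = 0.129). Its log2 signal was 8.55, 9.85 and 10.51 (lowest, median and highest) in the CPF channels, against 8.73, 10.21 and 10.87 in the control channels, so that the shift was small beside the spread of either group. With it went fbxa-150 at -0.28 (adjusted p = 0.139), fbxa-5 at -0.27 (adjusted p = 0.145) and fbxa-176 at -0.25 (adjusted p = 0.178), of which fbxa-5 was lower on 4 of 6 arrays and the others on 5.

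On the higher side were fbxa-67 (T12B5.11) on chromosome III at 0.39 ± 0.12 (SE, n = 6, adjusted p = 0.0966), positive on 5 of 6 arrays, and a probe of fbxa-65 (C17B7.11) on chromosome V at 0.49 ± 0.15 (adjusted p = 0.0996), positive on 6 of 6. With 4 CPF but only 2 control channels above background, fbxa-67 entered the set mainly through the CPF side, and the size of its ratio is uncertain. The second probe of fbxa-65, above background in 11 channels, lay at 0.13 ± 0.0956 (adjusted p = 0.371), on the same side but nearer to 0. Positive on all 6 arrays without a small p were fbxa-59 at 0.30 ± 0.16 (adjusted p = 0.260) and fbxa-128 at 0.22 ± 0.11 (adjusted p = 0.214). At the other extreme, fbxa-167 (C31C9.3) on chromosome II lay at 0.0019 ± 0.14, with 4 negative and 2 positive arrays, and fbxa-72 (F31F4.15) on chromosome V, above background in all 12 channels, at 0.09 ± 0.12 with 3 of each sign. For fbxa-72 the log2 signal was 8.85, 10.54 and 11.43 (lowest, median and highest) in the CPF channels, against 8.63, 10.46 and 11.07 in the control channels.

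**Figure D3:**
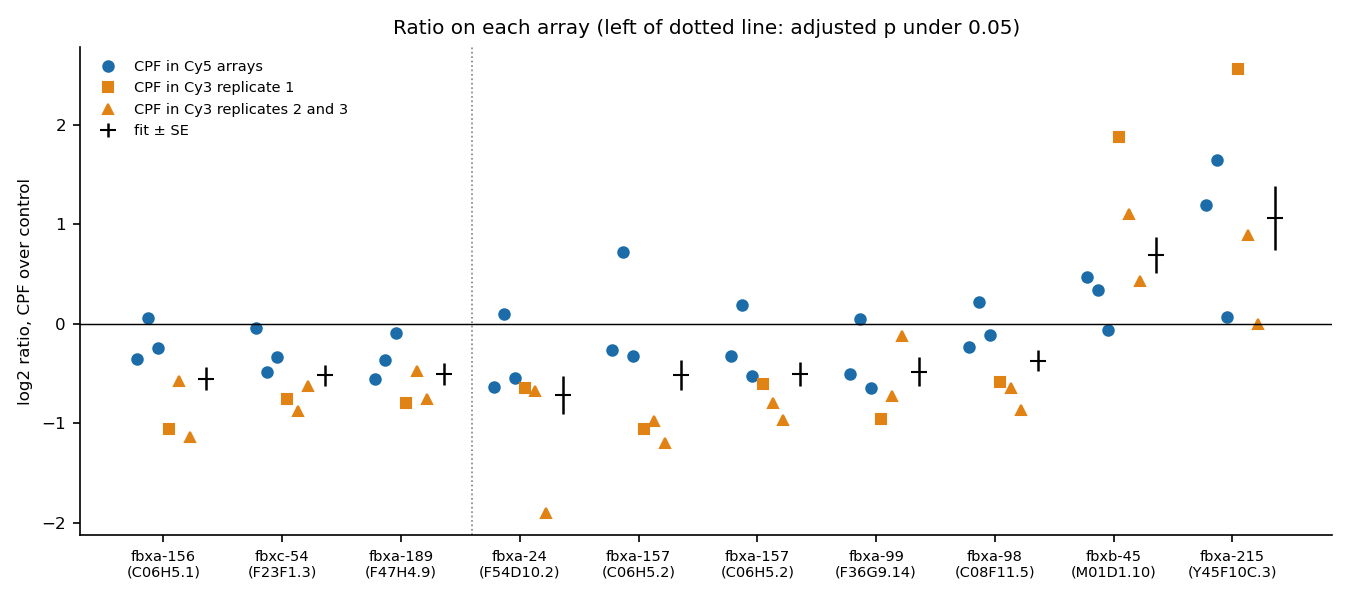
Log2 ratio of CPF over control (y axis) on each of the 6 arrays for 10 F-box probes (x axis, with sequence names), circles for CPF in Cy5, squares for CPF in Cy3 replicate 1, triangles for CPF in Cy3 replicates 2 and 3, and a black bar for the fit ± SE. The 3 probes left of the dotted line passed the threshold, and fbxa-215 spans the widest range, with 2.56 at the top.

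By family, the fbxa probes had a median log2 ratio of -0.03 (25 positive and 29 negative, 2 called lower), the 3 fbxb probes a median of -0.19 and the fbxc probes a median of -0.25 (3 positive and 7 negative, 1 called lower). Among all tested probes 2.17% were called lower. The SD of the array medians was 0.126 for fbxa, 0.295 for fbxb and 0.241 for fbxc, whose lowest array median, -0.76, was on CPF in Cy3 replicate 1. Differences between the 3 families were not tested. The fbxc genes below fbxc-54 in rank, each on the negative side and none past the threshold, were fbxc-58 at -0.39, fbxc-45 at -0.37, fbxc-27 at -0.36, fbxc-52 at -0.31, fbxc-3 at -0.19 and fbxc-33 at -0.11. On the positive side were fbxc-47 at 0.41, fbxc-8 at 0.40 and fbxc-50 at 0.10. The 7 pseudogene probes stayed between -0.29 and 0.21, and 0 passed. These genes were listed by family, apart from the rule for named genes.

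The F-box genes lie in clusters, and detected neighbours in the gene order of assembly WBcel235 did not all run the same way. On chromosome III, 5 genes within a stretch of 10 annotated genes, fbxa-55, fbxa-59, fbxa-60, fbxa-67 and fbxa-11, had ratios from -0.06 to 0.39 with 4 of 5 positive. A second stretch on III held 8 detected genes among 10, fbxa-21, fbxa-61, fbxa-63, fbxa-77, fbxa-91, fbxa-208, fbxa-78 and fbxa-92, with ratios from -0.45 to 0.32 and 6 of 8 negative. In another, fbxa-79, fbxa-80, fbxa-14 and fbxa-5, the ratios ran from -0.27 to 0.11. None of these 17 genes was called, where 3.50% of all tested probes were. The pair fbxa-156 and fbxa-157 on chromosome V was the only neighbouring pair or run (of 10) to hold a called gene, at -0.55 and -0.52. At that share of calls and with so few genes, 1 called gene does not set this pair apart.

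**Figure D4:**
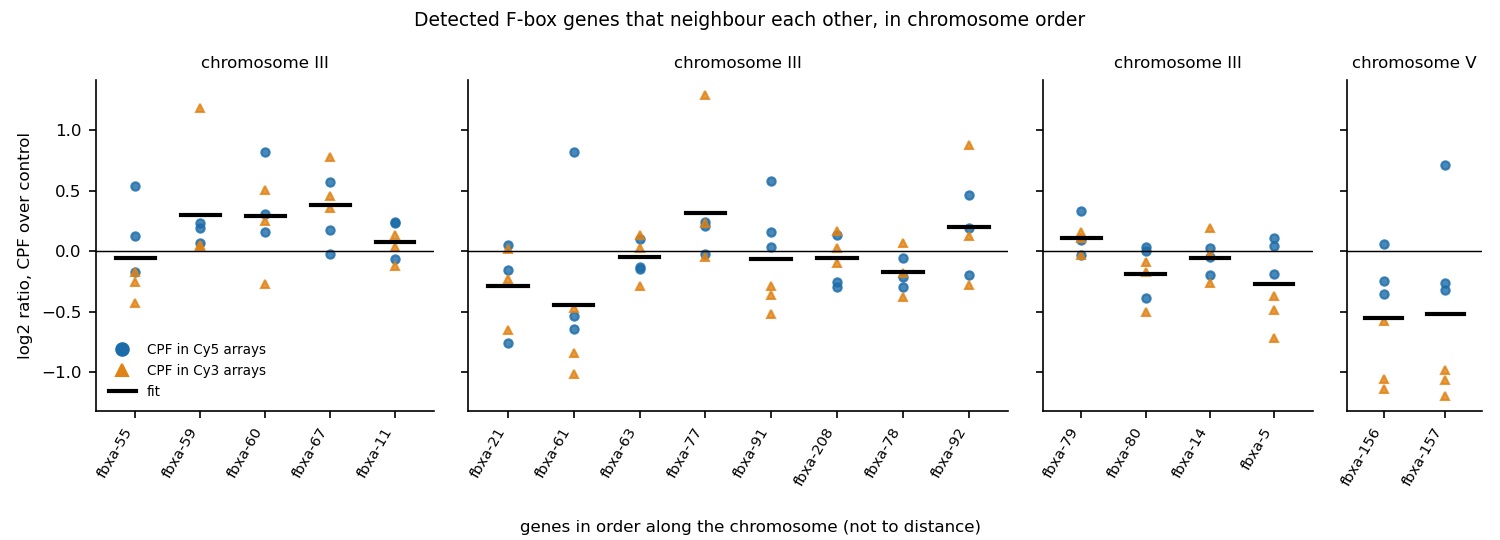
Log2 ratio of CPF over control (y axis) of detected F-box genes that neighbour each other on chromosomes III and V, in gene order (x axis, not to distance), each at its brightest probe, with circles for CPF in Cy5 arrays, triangles for CPF in Cy3 arrays and a black line for the fit. The first run has 4 of 5 fits above 0, the second 6 of 8 below 0, and both genes of the pair on chromosome V lie below 0, at -0.55 and -0.52.

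Of the adjacent pair fbxc-3 (F58H7.8) and fbxc-8 (F58H7.7) on chromosome IV, the fits had opposite signs, -0.19 ± 0.14 and 0.40 ± 0.15 (SE, n = 6), with adjusted p of 0.398 and 0.132. Genes measured by more than 1 detected probe gave the same sign with each probe in 5 of 5 cases. The gap between the 2 probes was 0.01 for fbxa-157, 0.15 for fbxa-78, 0.30 for fbxa-64, 0.35 for fbxa-65 and 0.49 for fbxa-24. Probes of 1 gene share the transcript and the arrays, and close duplicates may share probes, so these are not separate replicates.

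The members were above background in 333 of 402 CPF channels and in 297 of 402 control channels. This was not particular to them. Among all gene probes the share above background was 38.7% to 56.1% in the CPF channels and 35.2% to 53.4% in the control channels. It was higher in the CPF channel on every array except CPF in Cy3 replicates 2 and 3. The members were not tested against this background. Of 30 members seen in more CPF than control channels, 23 had a positive ratio, and of 9 seen in more control channels, 0 did. Of the 28 seen in as many channels of both groups, 6 had a positive and 22 a negative ratio. In 4 members, fbxa-215, fbxa-67, fbxa-77 and fbxa-88, only 2 control channels were above background, and no member had fewer than 3 CPF channels. Since brightness decides both the detection and the ratio, these counts are a description only. No member had a saturated pixel (0 of 67).

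The ratios of the members were also compared between the dye orientations. The dye term had an unadjusted p under 0.05 for 10 members (14.9%), against 9.89% of all tested probes, and 0 members passed once adjusted. The widest gap was that of fbxc-8, whose mean ratio was -0.21 with CPF in Cy5 and 1.02 with CPF in Cy3 (dye term, adjusted p = 0.474). For fbxa-156 the means were -0.18 and -0.92 (adjusted p = 0.490), and for the probe of fbxa-157 seen in all 12 channels they were 0.05 and -1.08 (adjusted p = 0.477). The size of the ratio of fbxa-156 thus came mainly from 1 orientation, and its part in the call was not tested beyond the fits by orientation, in which fbxa-156 had an adjusted p of 0.544 with CPF in Cy5 and 0.219 with CPF in Cy3.

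Of the SCF partners, 44 probes for 38 genes of the core ligase and its regulators were tested, among them the cullins, the skr genes, the COP9 signalosome and F-box genes with other names, and 0 were called. Their median ratio was 0.10, with 7 of 44 at an unadjusted p under 0.05, 6 higher and 1 lower. Among all tested probes 27.3% passed that p, 15.9% higher and 11.5% lower, and 3.50% were called. The RING subunit gene rbx-1, which brings the ubiquitin-conjugating enzyme to the cullin, lay at 0.74 ± 0.21 (SE, n = 6, adjusted p = 0.0844) and skr-2, an adaptor that links F-box proteins to the cullin, at 0.84 ± 0.26 (adjusted p = 0.0989). Both were widest on CPF in Cy3 replicate 1 (1.83 and 2.37) and near 0 on CPF in Cy3 replicate 3 (0.04 and 0.08). The scaffold gene cul-1 lay on the other side at -0.31 ± 0.13 (adjusted p = 0.160). Both skr-2 and cul-1 were picked after their values were seen.

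Among 21 probes for ubiquitin, activating and conjugating enzyme genes, 0 were called, beside 3.50% of all tested probes, with a median of 0.07. At an unadjusted p under 0.05, which 27.3% of all tested probes passed, were 6 of the 21, 4 higher and 2 lower. The smallest p were those of ubc-9, which conjugates SUMO, at 0.51 ± 0.14 (adjusted p = 0.0736), positive on 6 of 6 arrays, and, among the values on the other side, ubc-3, a conjugating enzyme that works with SCF ligases, at -0.45 ± 0.13 (adjusted p = 0.0880), negative on 6 of 6 arrays. The intracellular pathogen response genes could be tested at 14 of 41 probes, with 0 called and a median of -0.11. Here pals-32 lay at -0.54 ± 0.14 (adjusted p = 0.0702), pals-24 at 0.62 ± 0.18 (adjusted p = 0.0890) and cul-6, the cullin of this response, at -0.11 ± 0.10 (adjusted p = 0.483). The medians of the tested F-box and pathogen response probes, -0.05 and -0.11, each lay within the SD of their array medians (0.12 for each). No link between these sets can be read from the shared side of 0, and their difference was not tested. The genes ubc-3 and cul-6 were named after their values were seen.

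The MATH and BTB genes, with 51 tested probes, had a median of 0.07, with 1 called. This was math-38, lower at -0.89 ± 0.19 (SE, n = 6, adjusted p = 0.0471) and negative on 6 of 6 arrays. Next came bath-20 at 0.60 ± 0.15 (adjusted p = 0.0624) and bath-14 at 0.72 ± 0.19 (adjusted p = 0.0762), both positive on 6 of 6 arrays and not called. Each was widest on CPF in Cy3 replicate 1, at 1.02 and 1.96. At an unadjusted p under 0.05, 5 of 67 F-box probes were higher (7.46%) and 14 lower (20.9%). Of the 51 MATH and BTB probes 9 were higher and 3 lower, beside 15.9% higher and 11.5% lower among all tested probes. Calls were made for 3 of 67 F-box probes and 1 of 51 MATH and BTB probes, beside 3.50% of all tested probes, and the families were not tested against each other.

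Markers of several tissues were detected in these whole animals, at 13 of 13 intestine probes, 19 of 23 oocyte and germline probes, 20 of 24 muscle probes, 69.0% of hypodermis probes, 32 of 53 sperm probes and 14 of 26 neuron probes. Several lists were not alike in the channels labelled CPF and control. The summed signal of the oocyte and germline probes was 29574 to 62202 in the CPF channels and 21314 to 44500 in the control channels and was higher with CPF on 6 of 6 arrays, with 18 of 19 ratios positive and 2 called higher. For the sperm probes the sums were 218949 to 559196 with CPF and 71809 to 407992 in the control, higher with CPF on 5 of 6 arrays, with 30 of 32 ratios positive and 3 called higher. Their median ratio averaged 0.60 over the arrays with CPF in Cy5 and 0.05 over those with CPF in Cy3. The hypodermis probes had a median ratio of 0.51, with 74 of 109 ratios positive, 52 higher and 7 lower at an unadjusted p under 0.05 and 3 called higher. Among all tested probes 5878 of 11033 ratios were positive, with 15.9% higher and 11.5% lower at that p and 1.33% called higher. By array the hypodermis median was 0.34, 0.26 and 0.09 with CPF in Cy5 and 1.14, 0.50 and -0.001 with CPF in Cy3. It was thus largest on CPF in Cy3 replicate 1 and near 0 on CPF in Cy3 replicate 3. The hypodermis sums were 736922 to 1232384 with CPF and 785699 to 1016000 in the control, higher with CPF on 5 of 6 arrays. The intestine sums were 92735 to 139420 with CPF and 123703 to 157092 in the control, lower with CPF on 6 of 6 arrays. The single intestine probes were mixed, with 8 of 13 ratios negative and 2 higher and 4 lower at an unadjusted p under 0.05. Of the 13, 1 was called lower, beside 2.17% of all tested probes. The muscle sums were higher with CPF on 2 of 6 arrays, with 12 of 20 ratios positive and 1 called higher. For the neuron probes the sums were higher with CPF on 4 of 6 arrays, with 6 of 14 ratios positive and 0 called. The part of the tissue make-up or of the stage in the ratios of the F-box genes was not tested.

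The count of called members moved with the processing, in most settings alongside that of all probes. It was 8 of 67 (11.9%) after scale normalisation between arrays, where 11.6% of all probes were called, and 8 (11.9%) without CPF in Cy3 replicate 3, where 1323 of all 11033 were. It was 0 with the spot median in place of the mean, where 3.51% of all probes were called, and 0 without the dye term, where 1.86% were. With median centring within arrays 0 members were called. Their median was then 0.07, above 0 but below the 0.12 to which this centring moved the median of all tested probes.

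**Figure D5:**
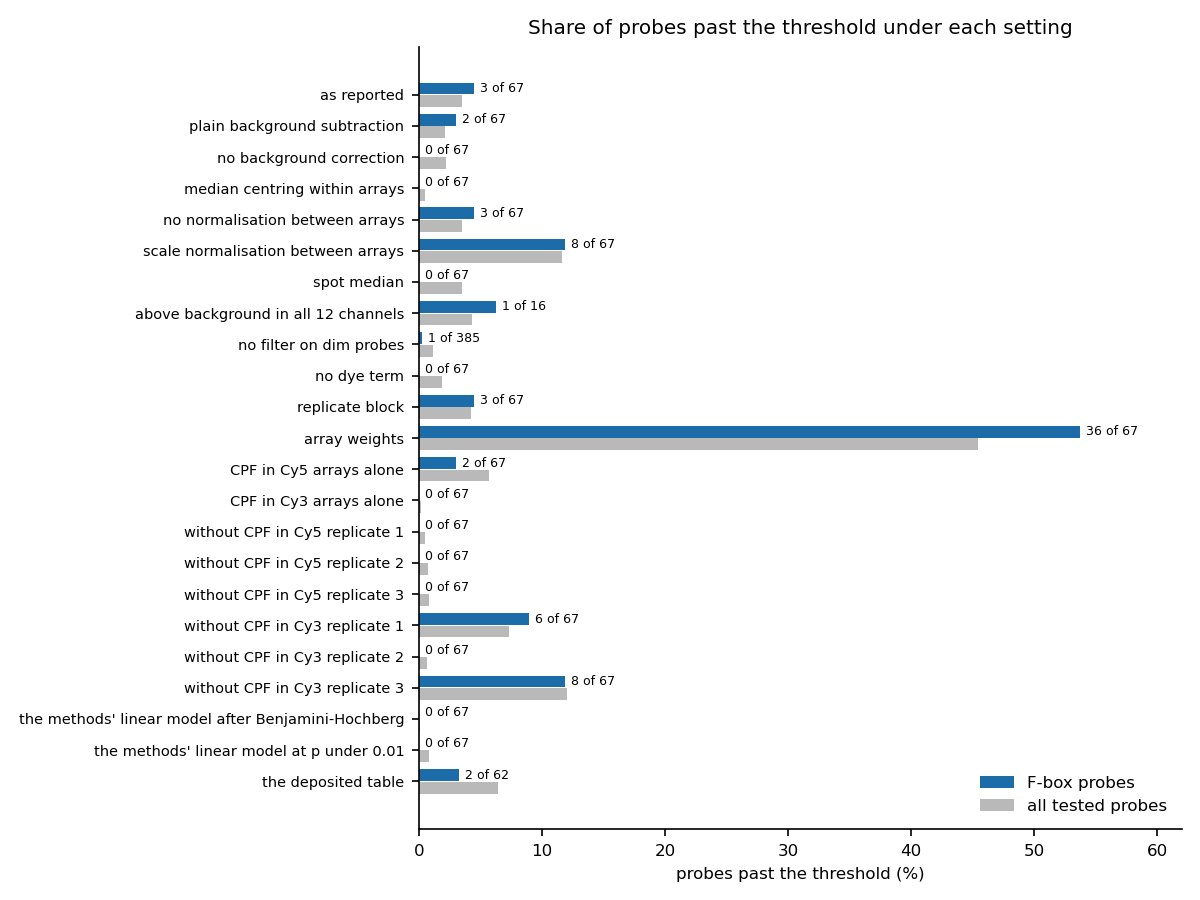
Percent of probes past the threshold (x axis) under each processing setting (y axis), in blue for the F-box probes with their number called and in grey for all tested probes. The 2 bars rise and fall together over most settings, and both are longest with array weights, at 36 of 67 for the F-box probes.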

How the data were processed

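Both dyes of 6 arrays were imaged by the authors with ScanArray Express, per the file headers. Spot intensity was deposited as raw means and medians beside the local background, with no correction or scaling. The software's percent of saturated pixels was deposited as well. The deposited log2 ratios were made by the authors with limma 3.2.3, per the submitters' processing notes, and were used only as an alternative, each column on the array it matched. Their medians ranged from -0.00396 to 0.00332, their scale was settled as log2 from the scanner values, and their direction was not.

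Gene names came from sequence names in the scanner files, updated through the annotation of assembly WBcel235 (21382 probes) or the platform's table (31), and 1077 probes kept the file's name. Control and blank spots (742) were left out of the tests. Intensity was corrected by normexp (offset 50), followed by loess within and Aquantile between arrays. Tested were the 11033 probes with a median over background plus 2 of its SDs in 6 or more of 12 channels. Signal over background takes the place of depth here, and the number of arrays limits the precision.

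The log2 ratio was fitted in limma 3.58.1 (R 4.3.3, lmFit and eBayes, 2-sided) with a CPF and a dye term, Benjamini-Hochberg over all tested probes, threshold 0.05. Errors after ± are moderated SEs. The labels call the replicates biological. Figures used matplotlib 3.10.9 (Python 3.11.15). The procedure was tested on simulated data.

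Members, lists and tests were chosen with earlier results of these data known. Named were all called members, the 6 uncalled ones with the smallest p, up to 3 members on each side of the detection limit, and from each other list called genes or the 2 with the smallest p. Genes named outside this rule are marked as such. Neighbours had at most 10 genes between them. Marker lists covered sperm, oocyte and germline, intestine, muscle, neuron and hypodermis. Alternatives covered background correction, normalisation, spot median, filter, dye term, replicate block, array weights, single orientations, single arrays left out, the linear model of the methods and the deposited table.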

Additional observations from a re-analysis of the deposited data

Results flagged for a closer look

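Of 67 member probes, 7 had 1 array far from the other 5 by Dixon's test, which flags about 1 in 20 groups by chance, and 5 of the 7 were on CPF in Cy3 replicate 1, the array with the widest ratios. That array gave log2 ratios of CPF over control of 1.19 for fbxa-59 (0.04 to 0.24 on the others), 1.29 for fbxa-77 (-0.05 to 0.24), 1.32 for the probe of fbxa-65 seen in 9 channels (0.18 to 0.48), 0.61 for fbxc-3 (-0.47 to -0.15) and -1.15 for fbxc-45 (-0.46 to -0.08). On CPF in Cy5 replicate 3, fbxa-61 was at 0.82, against -1.01 to -0.47 on the others. On CPF in Cy3 replicate 3, fbxc-47 was at -1.09, against 0.52 to 1.11 on the others, and its highest log2 signals were 13.44 in the CPF channels and 14.53 in the control channels, beside medians of 8.09 in the CPF channels and 7.30 in the control channels. Of all members, 28 of 67 (41.8%) had their widest ratio on CPF in Cy3 replicate 1, against 50.1% of all tested probes.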

How the results depend on the processing

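The median log2 ratio of the F-box probes moved by less than its spread over arrays under every alternative, between -0.10 and 0.07, but lay above 0 with median centring within arrays (0.07) and on the CPF in Cy5 arrays alone (0.02). The number of called F-box probes, 3 of 67, was 0 with no background correction (243 of all probes called), median centring (54), the spot median, no dye term (205), the CPF in Cy3 arrays alone (20) and the linear model of the methods, after Benjamini-Hochberg (8) as at p under 0.01 (89). In these fits 0 F-box probes were lower and 0 MATH and BTB probes were called. It was 1 of 16, lower, among probes above background in all 12 channels (256 called of all, 0 MATH and BTB) and 1 of 385, lower, with no filter on dim probes (0 MATH and BTB). Plain background subtraction gave 2 F-box probes and 233 calls in all. Scale normalisation gave 8 F-box probes (3 higher, 5 lower), 1281 calls in all, 5 among the other SCF and ubiquitin genes, 2 among the intracellular pathogen response genes and 4 among the MATH and BTB genes. Array weights, which limma left before they had converged, gave 36 (15 higher, 21 lower), 5005 in all, and 27, 10 and 20 in these lists. The CPF in Cy5 arrays alone gave 2 F-box probes, fbxa-215 and fbxc-47, both higher and 0 lower, 629 in all and 3 SCF and ubiquitin probes. The deposited table, turned to the scanner labels, gave 2 of 62, fbxc-8 higher and fbxa-156 lower (1 each), 700 in all and 2 SCF and ubiquitin probes. Among the named genes run under every alternative, 1 value changed sign, that of the probe of fbxa-157 seen in all 12 channels, at 0.045 on the CPF in Cy5 arrays alone. Over all 67 members, the mean of the CPF in Cy5 arrays differed in sign from the fit for 13, fbxc-8 among them at -0.21, and that of the CPF in Cy3 arrays for 7. The causes were not tested.

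With 1 array left out, 0 to 8 F-box probes were called (0 to 4 higher, 0 to 5 lower) and 58 to 1323 in all, with 0 to 8 among the other SCF and ubiquitin genes, 0 to 4 among the intracellular pathogen response genes and 0 to 8 among the MATH and BTB genes. The highest F-box count, 8, came without CPF in Cy3 replicate 3, and 6 were called without CPF in Cy3 replicate 1. Deviations of same-numbered arrays gave correlations of 0.103, -0.0788 and 0.271 over the probes, 1 of them below 0, so the numbers were not taken as pairs, although 2 of 3 CPF in Cy5 arrays correlated best with the CPF in Cy3 array of their own number. With the replicate number as a block, 3 F-box probes were called, fbxa-215 and fbxb-45 higher (2) and fbxa-156 lower (1), with 470 in all, 1 intracellular pathogen response probe and 0 MATH and BTB probes. Signal over background limits what can be said, since 318 F-box probes were too dim to test.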
